A study of Arabidopsis thaliana with 6 samples.

Results

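RALFL31 (AT4G13950) and RALFL34 (AT5G67070) encode RALF-like peptides of Arabidopsis thaliana, and each was read by 1 probe set on the array. They are 2 of the 22746 probe sets tested and 2 of the 11 whose gene symbol in the platform annotation begins with RALFL. Both were chosen by their flight and ground values in earlier results of these same data, in which they were higher in flight, so that difference is given as a description and carries no test. The other 9 RALFL probe sets are those left of the 11 once these 2 were set apart, and they serve as the family background. As the 2 were set apart by their flight and ground values, the 9 are not free of that choice. The RefSeq gene table lists 34 genes with a RALF or RALFL symbol, and the 23 without a probe set of their own in the annotation, RALF1 and RALF23 among them, were not analysed here.

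RNA came from shoots of seedlings of the Landsberg (LER-0) ecotype that were raised without light in canister hardware. Flight seedlings (3 arrays, replicates 2, 3 and 4) were carried on the space shuttle, and ground control seedlings (3 arrays, with the same replicate numbers) are labelled as such with no further detail. The sample titles carry an unexplained letter, f on flight and h on ground arrays, whose meaning cannot be told apart from flight. The labels name no mutation, transgene or added compound in either group and give no seedling age. Nor is it stated whether replicates were grown in separate dishes. The p-values below therefore measure only the spread between these arrays, which may be technical, and with 3 arrays a group the precision is low.

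RALF (rapid alkalinization factor) peptides are small cysteine-rich signals that plant cells secrete into the wall space, some of them after a subtilase such as S1P has cut the precursor. They bind receptor kinases of the CrRLK1L family, of which FERONIA (FER) is the best studied, together with membrane-anchored LLG co-receptors. They also bind leucine-rich repeat extensins (LRX), which sit in the wall. In Arabidopsis roots, RALF34 was described as a ligand of the CrRLK1L kinase THESEUS1 (THE1), which was itself found through its effect on the dark-grown hypocotyl of a cellulose-deficient mutant.

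RALFL34 stood at 5.11, 5.76 and 5.46 in flight replicates 2, 3 and 4 and at 3.24, 3.22 and 2.38 in ground replicates 2, 3 and 4, as log2 expression values. All flight arrays lay above all ground arrays, as in 14.2% of all probe sets, and the lowest flight value exceeded the highest ground value by 1.87. The flight mean was 5.44 ± 0.32 and the ground mean 2.95 ± 0.49 (SD, n = 3), which gives a log2 difference of 2.50 (SE 0.28), or 5.65-fold. Ground replicate 4 was the low ground array, with the other ground arrays close to each other. Without it the difference was 2.21.

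RALFL31, a family member whose role is less well known, stood at 3.85, 4.24 and 4.11 in flight replicates 2, 3 and 4. On the ground it read 2.86, 2.50 and 2.37 in the same order of replicates. Here too the groups did not overlap, with a gap of 0.99 between the lowest flight and the highest ground value. The flight mean was 4.07 ± 0.20 and the ground mean 2.58 ± 0.25 (SD, n = 3), which gives a log2 difference of 1.49 (SE 0.18), or 2.80-fold.

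Both transcripts read near the middle of the array on the ground and in its upper part in flight. The medians of the 6 arrays ran from 2.15 to 2.24. Among all probe sets of its array, RALFL34 lay between the percentiles 53.1 and 66.4 on the ground and between 82.9 and 88.2 in flight. RALFL31 lay between 52.9 and 61.8 on the ground and between 71.0 and 75.3 in flight. No detection calls were used, so readings this close to the median on the ground cannot be called expressed or not. Ordered by log2 difference from the largest positive one, RALFL34 was number 67 and RALFL31 number 394 of the 22746 probe sets. The RALFL34 difference was the larger of the pair by 1.01. In a bulk sample, fewer cells of a type and less RNA per cell cannot be told apart.

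**Figure D1:**
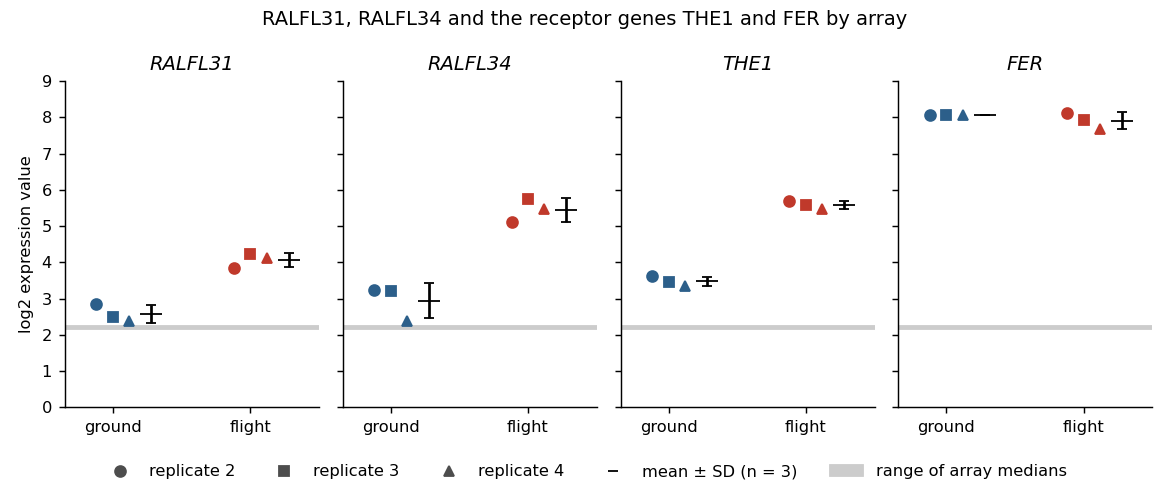
Log2 expression values of RALFL31, RALFL34, THE1 and FER on each ground (blue) and flight (red) array, with the mean ± SD of 3 arrays in black and the range of the array medians as a grey band. RALFL31, RALFL34 and THE1 lie higher on all 3 flight arrays than on any ground array, while FER lies near 8 in both groups.

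Seed reserve transcripts differed between arrays of the same group, and these values stand beside the differences above. The 3 measured of 13 listed seed reserve markers (PAP85, OLEO3 and AT3G01570) averaged 2.46, 1.81 and 4.96 in flight replicates 2, 3 and 4 and 1.78, 8.44 and 8.53 in ground replicates 2, 3 and 4. When only the 3 arrays with low markers were compared (replicates 2 and 3 of flight, replicate 2 of ground, so 1 ground array with no spread of its own), the log2 difference was 2.19 in RALFL34 and 1.18 in RALFL31. With the marker mean as a covariate the differences were 2.30 and 1.32. The part of seed RNA in either value was not tested beyond this. Of the tissue markers, PORB, a protochlorophyllide reductase of dark-grown leaves and cotyledons and the 1 measured of 8 listed shoot markers, read 2.40 to 4.71 and overlapped between groups. The root hair expansin genes EXPA7 and EXPA18, the 2 measured of 9 listed root markers, read 0.96 to 1.89, below every array median.

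Among the other 9 RALFL genes, 6 had a positive and 3 a negative difference, and none (0) passed an adjusted p of 0.05 in limma, where 5.94% of all probe sets did. At an unadjusted p under 0.05, 3 of the 9 passed, all higher in flight, against 21.0% of all probe sets in either direction. Of the 22746 probe sets, 2850 passed at that level and were higher in flight. Their median log2 difference was 0.59, against -0.02 over all probe sets tested. That median moved with single arrays, from 0.33 without ground replicate 4 and 0.35 without flight replicate 3 to 0.65 without flight replicate 2 and 0.85 without ground replicate 2. It was 0.77 with dim probe sets left out, 0.31 with the seed reserve covariate and -0.0057 on the 3 arrays with low seed reserve markers. On those 3 arrays RALFL34 and RALFL31 differed by 2.19 and 1.18, as given above. That the 2 chosen genes exceed the 9 left, and that few of the 9 pass, follows in part from the choice and is no result.

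RALFL22, whose peptide is known to act with FER and LRX proteins, had the largest difference of the 9. It read 7.07, 7.21 and 6.76 in flight replicates 2, 3 and 4 and 6.55, 5.92 and 5.37 in ground replicates 2, 3 and 4. The groups did not overlap, but only 0.21 separated them, and the log2 difference of 1.07 (SE 0.30) had an adjusted p of 0.0932 in limma. Without ground replicate 2, its highest ground array, the difference was 1.37 and passed (adjusted p 0.0190). On the 3 arrays with low seed reserve markers, of which 1 is a ground array, it was 0.59.

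RALFL33, another peptide known to be perceived through FER, read 4.86, 5.36 and 5.06 in flight replicates 2, 3 and 4 and 4.68, 4.30 and 4.06 in ground replicates 2, 3 and 4. Its log2 difference of 0.75 (SE 0.21) had an adjusted p of 0.0956 in limma, and it too passed without ground replicate 2 (adjusted p 0.0416). RALFL22 and RALFL33 were the 2 of 9 with an adjusted p under 0.1, where 10.0% of all probe sets had one.

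RALFL32 was well above the array medians in both groups, at 6.48, 6.55 and 6.73 in flight replicates 2, 3 and 4 and at 6.52, 5.995 and 5.47 in ground replicates 2, 3 and 4. Ground replicate 2 lay inside the flight range, and the log2 difference was 0.59 (adjusted p 0.258). In the RefSeq annotation RALFL31 and RALFL32 lie on chromosome 4 with 10 protein-coding genes between them. The near neighbours of RALFL31 and RALFL34 with probe sets of their own were AT4G13960, AT5G67050 and AT5G67090, each 2 genes away. Their log2 differences were -0.05, -0.16 and -5.7e-05 in that order, and the lowest of their adjusted p in limma was 0.548.

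RALFL27 stood out on 1 array. It read 3.84 in flight replicate 3, against 2.51 and 2.49 in flight replicates 2 and 4 and 1.97 to 2.47 on the ground. RALFL24 was more evenly spread, at 2.50, 3.08 and 1.95 in flight replicates 2, 3 and 4 and at 1.98, 1.77 and 1.09 in ground replicates 2, 3 and 4, and its groups overlapped. The log2 differences were 0.80 in RALFL27 (adjusted p 0.286) and 0.90 in RALFL24 (adjusted p 0.188).

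The remaining 4 genes read near or below the array medians. RALFL18 read 1.68 to 2.53 over the 6 arrays, RALFL28 1.35 to 2.01, RALFL26 1.15 to 1.48 and RALFL25 1.08 to 1.37. Their log2 differences ran from -0.22 in RALFL26 to 0.11 in RALFL18. RALFL25 and RALFL26 encode peptides known from pollen, a tissue not sampled here.

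**Figure D2:**
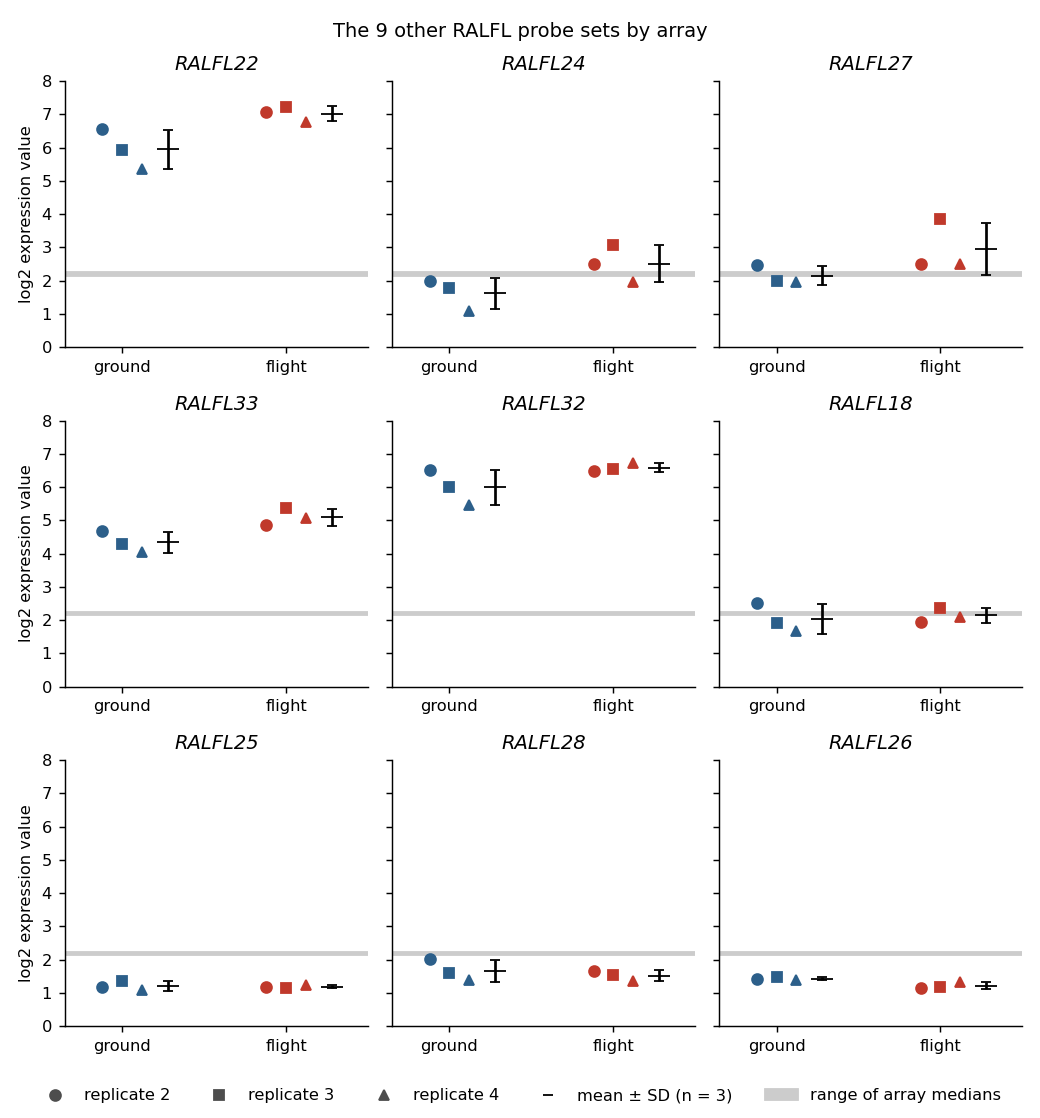
Log2 expression values of the 9 other RALFL probe sets on each ground (blue) and flight (red) array, in order of their flight minus ground difference, with the mean ± SD of 3 arrays in black and the range of the array medians as a grey band. RALFL22, RALFL32 and RALFL33 lie well above the band in both groups, and RALFL25, RALFL26 and RALFL28 below it.

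Within the groups RALFL31 and RALFL34 had the same order of arrays. The order was not used to choose them, but it is not free of a choice of genes higher in flight. Both were lowest in flight replicate 2 and highest in flight replicate 3, and highest in ground replicate 2 and lowest in ground replicate 4, although ground replicates 2 and 3 of RALFL34 differed by little. Of the other 9 RALFL probe sets, 2 had this order in both groups, against 4.06% of all probe sets. In flight alone 2 of the 9 had it, near the 18.2% of all probe sets, so the flight order was not shared by the family. On the ground alone 7 of the 9 had it, against 20.1% of all probe sets. Ground replicate 4 was the lowest ground array in 11 of the 11 RALFL probe sets (9 of 9 without RALFL31 and RALFL34), against 36.3% of all probe sets, and ground replicate 2 the highest in 9, against 39.2%. Among the 939 probe sets called higher in flight, 5.54% had the order in both groups, 19.3% in flight and 27.3% on the ground. Ground replicate 4 was the lowest ground array in 52.2% of those 939.

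The place of ground replicate 4 depended on the scaling. Its hybridization spike-ins averaged 9.61, against 10.13 to 10.20 on the other arrays. Its array median as deposited was 2.19, against 2.15 and 2.19 in ground replicates 2 and 3. After each array was centred on its spike-ins, ground replicate 4 was the lowest ground array in 2 of the 11 RALFL probe sets and in 3.33% of all probe sets. Centring moves all values of an array by the same amount, so lower counts follow from the shift itself. These counts were made after the values were seen, the probe sets share the same 3 ground libraries, and the part of the spike-in shift in the order was not tested further. With that centring the flight minus ground difference was 2.34 in RALFL34 and 1.33 in RALFL31.

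**Figure D3:**
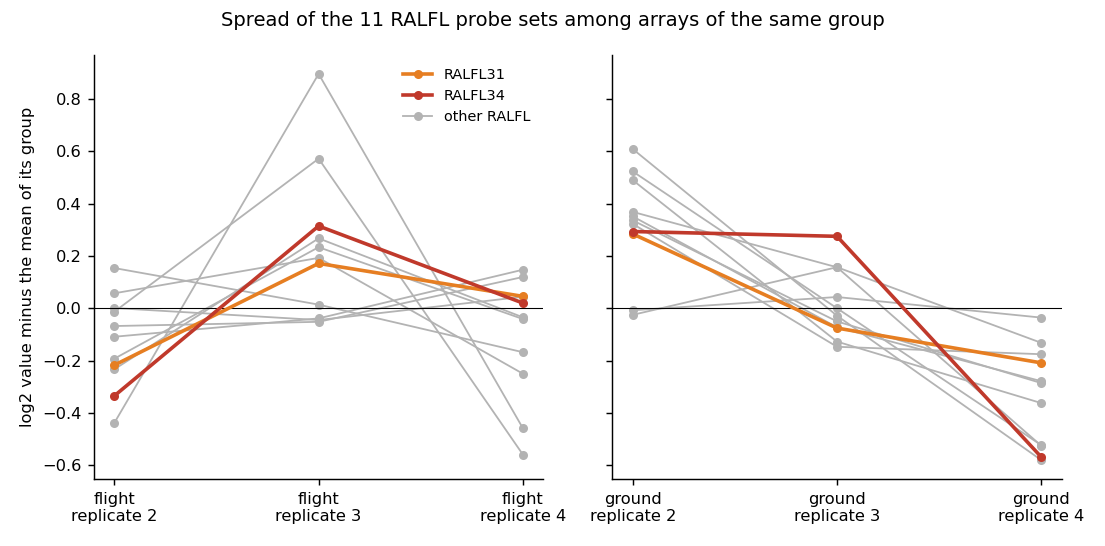
Log2 value of each of the 11 RALFL probe sets minus the mean of its group, on the 3 flight arrays (left) and the 3 ground arrays (right), with lines joining the values of a probe set. RALFL31 and RALFL34 are drawn in colour, and ground replicate 4 is the lowest ground array for all 11.

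THE1, the CrRLK1L kinase described as the receptor of RALF34, was higher in flight. It read 5.68, 5.58 and 5.48 in flight replicates 2, 3 and 4 and 3.62, 3.45 and 3.36 in ground replicates 2, 3 and 4. Both groups were tight, and 1.87 separated the lowest flight from the highest ground value. The log2 difference was 2.11 (SE 0.14), or 4.30-fold, from 3.47 ± 0.13 to 5.58 ± 0.10 (SD, n = 3), with an adjusted p of 0.00219 in limma. THE1 passed in 14 of 14 alternatives that kept at least 2 arrays a group, with log2 differences of 1.95 to 2.18 and adjusted p from 0.000554 to 0.0203. On the 3 arrays with low seed reserve markers, with 1 ground array, its difference was 2.01. The receptor list was drawn up with earlier results of these data known, so the p-values of THE1 are not those of an independent test.

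FER, the best-studied RALF receptor, did not pass the test. It read 8.12, 7.93 and 7.67 in flight replicates 2, 3 and 4 and 8.06, 8.07 and 8.05 in ground replicates 2, 3 and 4. The log2 difference was -0.15 (SE 0.16, adjusted p 0.654), and the groups overlapped.

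In the receptor list 12 of 17 CrRLK1L genes had a probe set of their own, and THE1 was the 1 that passed, in a table where 4.13% of all probe sets were called higher and 1.82% lower in flight. The median log2 difference of the 12 was 0.16. AT5G24010 had the next largest difference, 0.88 (adjusted p 0.133), from values of 3.26, 3.09 and 3.68 in flight replicates 2, 3 and 4 and 2.46, 2.98 and 1.96 in ground replicates 2, 3 and 4. ANX1, ANX2, BUPS1 and BUPS2, receptors known from pollen tubes, were below the median of every array, with log2 differences of -0.30 to 0.22. CVY1, MDS3, MDS4, AT2G23200 and AT5G59700 had differences of -0.44 to 0.41 and did not pass. The 4 LLG co-receptor genes, LRE among them, had no probe set of their own in the annotation used and were not analysed here.

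Of the LRX genes 8 of 11 were measured, and none (0) passed an adjusted p of 0.05 in limma, while 3 had an unadjusted p under 0.05, all higher in flight. Over all probe sets these shares were 5.94% and 21.0%, in either direction, and 2850 of the 22746 had an unadjusted p under 0.05 and were higher in flight. The median log2 difference of the 8 was 0.21, and it was 0.61 with dim probe sets left out, 0.34 without ground replicate 4, 0.31 with the seed reserve covariate, 0.72 on the 3 arrays with low seed reserve markers and 0.054 after spike-in centring. LRX4, which acts with FER and RALF peptides in vegetative cell walls, had the largest difference, 1.23 (SE 0.36, adjusted p 0.104). It read 7.03, 7.41 and 7.46 in flight replicates 2, 3 and 4 and 5.95, 6.87 and 5.38 in ground replicates 2, 3 and 4, and it passed without ground replicate 3 (adjusted p 0.0212). LRX5, of the same vegetative group, had a difference of 0.61 (adjusted p 0.140). LRX9 and LRX10 are among the LRX genes known from pollen. Both read above every array median in these shoots, LRX9 at 2.58 to 4.59 and LRX10 at 6.51 to 7.75. LRX9 had a difference of 0.95 (adjusted p 0.176) and passed with the seed reserve covariate (adjusted p 0.0338). LRX10 had one of -0.52 (adjusted p 0.349), which was -0.20 without ground replicate 3. The other 4 of the 8, LRX6, LRX7, LRX8 and LRX11, differed by -0.22 to 0.22. LRX8 was widely spread, at 1.72 to 3.87 over the 6 arrays, and its difference ran from -0.74 to 0.33 with 1 array left out.

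S1P, the subtilase that cuts some RALF precursors, averaged 2.79 ± 0.29 in flight and 3.36 ± 0.60 on the ground (SD, n = 3), with 3.13 and 2.91 in ground replicates 2 and 3 and 4.05 in ground replicate 4. Its log2 difference was -0.57 (SE 0.31, adjusted p 0.368), with ground replicate 4 apart from the other arrays. Of 14 genes listed as acting downstream of the receptors, only MRI, a kinase known from pollen tubes and root hairs, was measured. It read 1.19 to 1.41 on the 6 arrays, with a log2 difference of 0.01 (adjusted p 0.974).

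**Figure D4:**
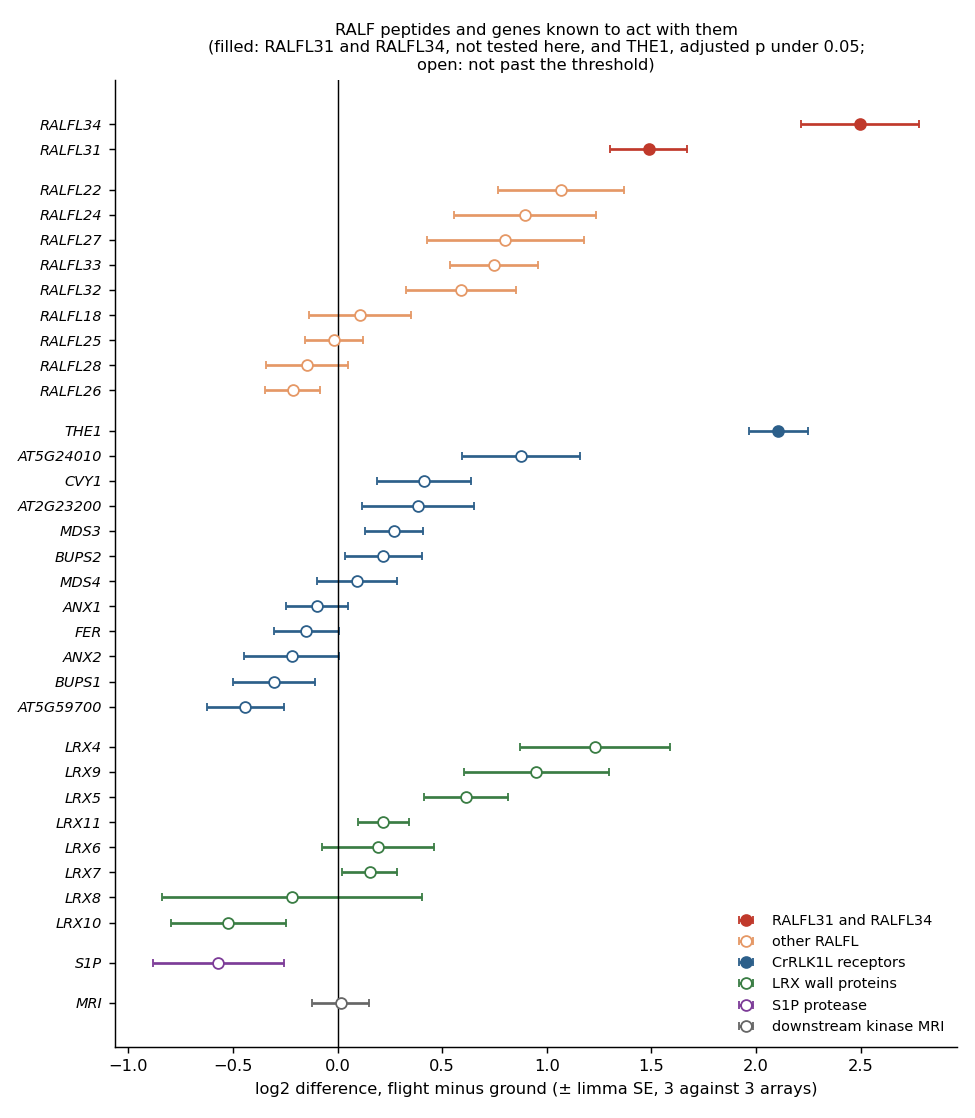
Log2 difference, flight minus ground, with the limma SE (3 against 3 arrays) for RALFL31 and RALFL34, the 9 other RALFL genes, 12 CrRLK1L receptors, 8 LRX genes, S1P and MRI. RALFL34, THE1 and RALFL31 have the largest differences, at 2.50, 2.11 and 1.49, and THE1 is the one tested gene past an adjusted p of 0.05.

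The profiles most like those of RALFL31 and RALFL34 were sought among all probe sets of 1 gene, by the root mean square distance over the 6 arrays after each probe set was centred on its own mean. Such a search returns genes with a like flight minus ground difference and favours a like order of arrays, so neither of these is a result in them. Nearest to RALFL34 were AT4G30020 (distance 0.13 on the log2 scale), AT3G13980 (0.19), SAH7 (AT4G08685, 0.20), AT2G39870 (0.21) and AT1G67860 (0.22). AT4G30020 read 3.94, 4.91 and 4.39 in flight replicates 2, 3 and 4 and 2.17, 1.98 and 1.43 in ground replicates 2, 3 and 4, the same order of arrays as RALFL34. The other 4, among them SAH7, of the Ole e I-like family of secreted proteins, had ground replicate 3 as their highest ground array.

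Nearest to RALFL31 were AT3G24040 (distance 0.067), AT1G26850 (0.077), AT5G52540 (0.091), AT1G67590 (0.11) and AT5G17160 (0.13). AT3G24040 read 4.11, 4.43 and 4.29 in flight replicates 2, 3 and 4 and 2.92, 2.60 and 2.56 in ground replicates 2, 3 and 4, and it too had the order of arrays of RALFL31. None of these 10 genes was among the RALFL, receptor or LRX genes. By the same measure THE1 was number 24 and RALFL31 number 110 in nearness to RALFL34, at distances of 0.38 and 0.55, and the nearest of the other 9 RALFL genes was RALFL22, at 0.76. These places too take in the flight minus ground difference and are no separate result. Within flight THE1 was highest in replicate 2, where RALFL34 was lowest. On the ground both fell from replicate 2 to replicate 4.

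**Figure D5:**
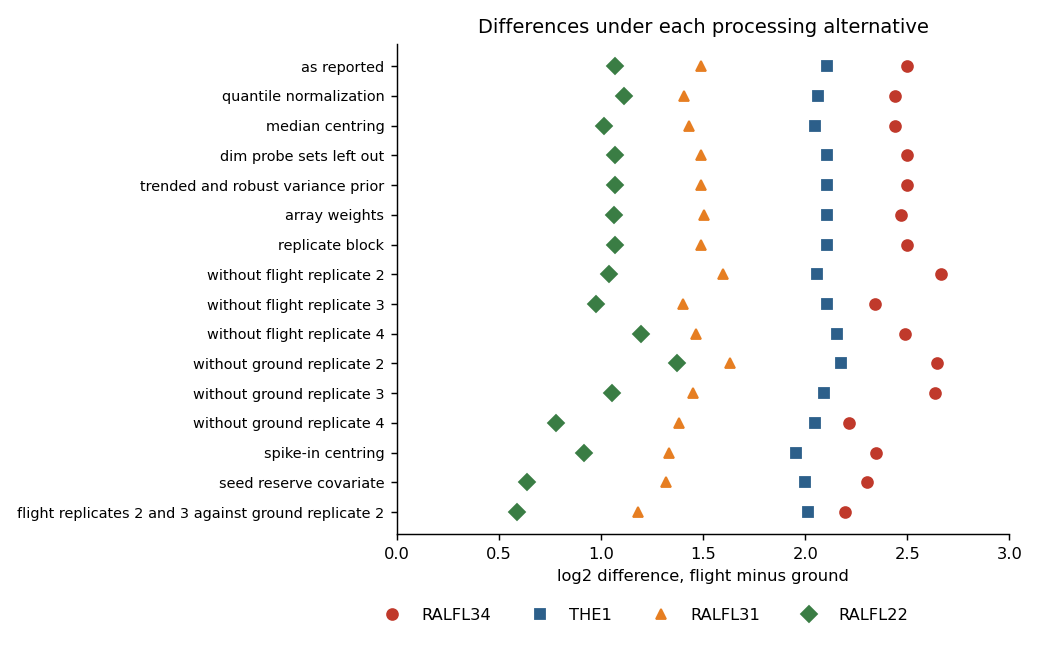
Log2 difference, flight minus ground, of RALFL34, THE1, RALFL31 and RALFL22 as reported and under each of 15 processing alternatives. RALFL34 stays between 2.19 and 2.66, THE1 between 1.95 and 2.18, RALFL31 between 1.18 and 1.63 and RALFL22 between 0.59 and 1.37.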

How the data were processed

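Per the labels' protocols, column-purified RNA was amplified as a whole transcriptome and then biotin-labelled. The values are log2 expression values as deposited by the authors in the series' value table (22810 probe sets, 6 arrays). The submitters' processing notes name RMA, PLIER and MAS5 without saying which one produced the table. Base 2 was inferred from the range of values, 0.63 to 12.98.

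Control probe sets (64) were left out. The annotation gave 1 gene for 13513 of the 22746 probe sets tested. Of the 11 RALFL probe sets, 10 were matched to RefSeq genes by gene identifier and RALFL22 by symbol. No coordinates are given, since the files name no genome build.

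Flight and ground were fitted with limma 3.58.1 (R 4.3.3), using lmFit and eBayes with the group as the only term and two-sided tests, with Benjamini-Hochberg adjustment over all probe sets tested and a threshold of 0.05. The procedure was tested on simulated data with independent variation in each probe set. Shifts shared by many probe sets, such as those in seed reserve transcripts, were not simulated. SE are limma's moderated standard errors. The genes named are the RALFL probe sets, every measured member of the lists of receptors, co-receptors, LRX, protease and downstream genes, and the 5 nearest profiles to RALFL31 and to RALFL34. Members and lists were chosen with earlier results of these data known. Plots were made in Python 3.11.15 with matplotlib 3.10.9.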

Additional observations from a re-analysis of the deposited data

How the results depend on the processing

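The differences of RALFL34 and RALFL31 kept their sign in 15 of 15 alternatives. That is no test, since both genes were chosen for this difference and leaving out arrays cannot reverse it where the groups do not overlap. With 1 array left out the differences ran from 2.21 to 2.66 and from 1.38 to 1.63. The RALFL31 difference moved by more than its replicate SD when only the 3 arrays with low seed reserve markers were compared, to 1.18, an alternative chosen after the data were seen, as were spike-in centring and the seed reserve covariate. The count of other RALFL probe sets called ran from 0 to 2 with 1 array left out and was 2 at an adjusted p under 0.1. Their median was -0.0057 on those 3 arrays. The receptor median was 0.41 once dim probe sets were left out, 0.031 to 0.17 with 1 array left out, 0.0025 after spike-in centring, 0.039 with the seed reserve covariate and 0.061 on those 3 arrays. The LRX count ran from 0 to 1 with 1 array left out and was 1 with the seed reserve covariate. The value of MRI, the 1 measured downstream gene, was -0.14 after spike-in centring. Over all probe sets 1352 were called, against 271 to 1906 with 1 array left out, 833 after spike-in centring, 716 with the covariate, 633 on those 3 arrays (whose 1 ground array is assumed to vary like the flight arrays) and 2282 at an adjusted p under 0.1. The causes were not tested.

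Deviations of same-numbered flight and ground arrays had correlations of 0.20, -0.03 and 0.27. Those of differently numbered arrays ran from -0.39 to 0.23. With 3 arrays a group these values cannot decide on pairing, and the numbers were not taken as pairs. With the replicate block 1106 probe sets were called, and no call named here changed. Detection calls were not used, which limits readings near the array medians.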
